A study of Homo sapiens with 15 samples.

Results

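A set of 9 formin genes was followed in MDA-MB-231 cells that were depleted of YAP, of TAZ or of both: DIAPH1, DIAPH2, DIAPH3, DAAM1, FMNL1, FMNL2, FMNL3, FHOD1 and INF2. They were chosen by gene symbol, and all 9 were found among the 18858 genes of the deposited count table. MDA-MB-231 is a human breast adenocarcinoma line, labelled wild type, that makes matrix-degrading invadopodia. The 5 groups of 3 libraries were untransfected cells (Control), cells given a non-targeting siRNA pool (siControl), and cells given siRNA pools against YAP1 (siYAP), against WWTR1, the gene of TAZ (siTAZ), or against both (siYAP+TAZ). The cells stood 24 h before transfection and 48 h after it, and were then replated on unlabelled gelatin, from which RNA was taken after 5 to 6 h, and the labels give this protocol for every group. The knockdowns were transient and in 1 cell line. Libraries carry the numbers 16 to 30 in their names and are given by these numbers. The sequenced RNA came from 3 independent sets of experiments, and the runs 16 to 20, 21 to 25 and 26 to 30 each hold 1 library of every group in the same order. The sources used here do not say that a run is a set, so the main test has no term for the run. A fit with the run as a block is given where it changes a call of the 9 formins. For the other formins and the lists of related genes it is not given in the single knockdowns.

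Formins are actin assembly factors. They act as dimers that nucleate unbranched actin filaments and stay on the growing barbed end, where they are fed with actin by profilin. The Diaphanous-related formins are held in a closed form until they are activated, and they are known to supply filaments to filopodia, stress fibres and invadopodia. YAP and TAZ are co-activators of the Hippo pathway that reach DNA through TEAD factors, which recognise the core GGAATG.

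The perturbation is defined by the siRNA pools, whose sense strands are given in lower case, 5′ to 3′. There were 4 oligos against YAP1 and 4 against WWTR1, each of 19 bases.
siRNA YAP1 oligo 1: gcaccuaucacucucgaga
siRNA YAP1 oligo 2: gaacauagaaggagaggag
siRNA YAP1 oligo 3: ccaccaagcuagauaaaga
siRNA YAP1 oligo 4: ggucagagauacuucuuaa
siRNA WWTR1 oligo 1: aagccuagcucguggcgga
siRNA WWTR1 oligo 2: aggaacaaacguugacuua
siRNA WWTR1 oligo 3: ggacaaacacccaugaaca
siRNA WWTR1 oligo 4: gacaugagauccaucacua
All 8 lay in coding exons of their target in GRCh38 (GENCODE release 44). YAP1 oligos 1 to 4 lay at chr11:102227471-102227489 in exon 8, chr11:102229814-102229832 in exon 9, chr11:102229900-102229918 in exon 9 and chr11:102114375-102114393 in exon 2, on the plus strand. WWTR1 oligos 1 to 4 lay at chr3:149657174-149657192 in exon 2, chr3:149520895-149520913 in exon 7, chr3:149520960-149520978 in exon 7 and chr3:149527864-149527882 in exon 5, on the minus strand. A full match to an annotated transcript of a formin was found for 0 of the 8. YAP1 oligos 1 and 4 also matched the pseudogene YAP1P1. Partial matches were not searched.

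Depth lay between 18696737 and 30107312 counts per library. YAP1, counted after normalization to library size and composition (normalized count), stood at 4431, 4333 and 4202 in siControl, at 1013, 2764 and 761 in siYAP and at 2240, 2202 and 1796 in siYAP+TAZ. Library 23 of siYAP thus held more YAP1 RNA than each of the siYAP+TAZ libraries. WWTR1 stood at 1995, 1850 and 1579 in siControl, at 828, 254 and 521 in siTAZ and at 1133, 1123 and 1284 in siYAP+TAZ. In the test across all genes (edgeR's quasi-likelihood test, Benjamini-Hochberg adjustment, used throughout), WWTR1 fell in siTAZ (log2 fold change -1.74, adjusted p = 0.0187), while YAP1 in siYAP (-1.51, adjusted p = 0.0992), YAP1 in siYAP+TAZ (-1.06, adjusted p = 0.0723) and WWTR1 in siYAP+TAZ (-0.62, adjusted p = 0.199) did not pass, although no knockdown library overlapped siControl. VIM, CD44, AXL and CAV1, which are high in this line, each lay above 530 counts per 1000000 counts of the library (CPM) in all libraries, and the epithelial and receptor genes EPCAM, ERBB3 and PGR stayed at or below 17.2 CPM. AXL (-0.51, adjusted p = 0.000199) and CAV1 (-0.35, adjusted p = 0.00650) fell in siYAP+TAZ. Of 5 leukocyte markers 2 were measured, PTPRC at 0 to 6 counts and CD14 at 11 to 47, and their sum was 0.771 to 0.978 CPM in siControl and 1.55 to 1.91 CPM in siYAP+TAZ, where CD14 rose (1.20, adjusted p = 0.00197). Of 3 fibroblast markers COL1A1 and COL1A2 were measured, summing to 9.85 to 20.1 CPM in siControl and 20.4 to 22.8 CPM in siYAP+TAZ. The endothelial markers CDH5 and VWF were not found by symbol in the count table. The part of these levels in the formin results was not tested.

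The cells expressed a broad set of formins at very unequal levels. Per kilobase of annotated exon, and as a mean over the 15 libraries, DIAPH1 was highest at 55.3 CPM per kb (lowest 48.4, median 56.2, highest 59.4), FMNL1 stood at 28.7 and INF2 at 24.3. DIAPH3 (14.4) and FHOD1 (12.4) formed a middle tier. FMNL2 (6.61), FMNL3 (4.39), DIAPH2 (2.33) and DAAM1 (1.49) were lowest among the 9. The range over libraries of DIAPH1 lay above that of FMNL1, that of INF2 above that of DIAPH3, that of FHOD1 above that of FMNL2 and that of FMNL3 above that of DIAPH2, whereas FMNL1 and INF2, and DIAPH3 and FHOD1, overlapped. FMN2 and GRID2IP were not found by symbol in the count table. A further 4 human formins were measured, with FHOD3 at 5.70, FMN1 at 1.79, FHDC1 at 0.251 and DAAM2 at 0.0616 CPM per kb. These levels rest on the length used: with the longest transcript in place of all exons, INF2 stood at 42.8 and DAAM1, at 2.72, lay above DIAPH2.

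**Figure D1:**
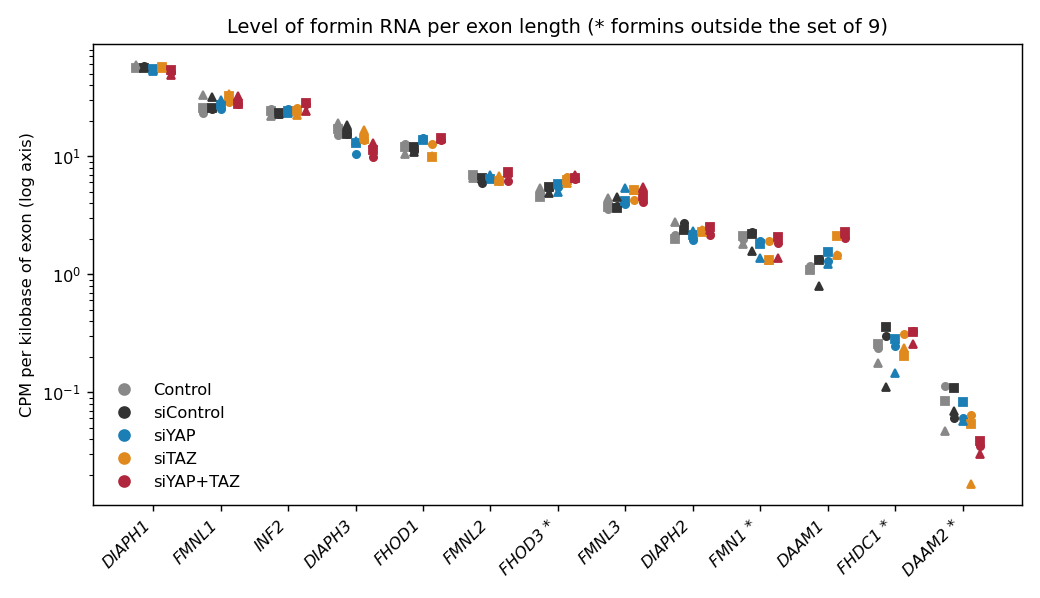
Level of 13 formins in each of 15 libraries, in CPM per kilobase of exon on a log axis, with 1 point per library coloured by group and shaped by library number (circles 16 to 20, squares 21 to 25, triangles 26 to 30). DIAPH1 leads at a mean of 55.3 and DAAM1 is the lowest of the 9 at 1.49, while DAAM2 lies near 0.0616.

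The summed level of the 9 formins was 149 ± 4.94 CPM per kb in siControl and 149 ± 3.08 in siYAP+TAZ (SD, n = 3), and the mean of the other groups lay between 146 and 154. The make-up of that sum was set out per gene. The share of DIAPH1 was 38.2% ± 1.57 in siControl and 34.5% ± 1.76 in siYAP+TAZ, that of DIAPH3 was 11.0% ± 0.787 and 7.62% ± 0.952, that of INF2 was 15.3% ± 0.572 and 17.9% ± 1.51, that of FHOD1 was 7.61% ± 0.554 and 9.41% ± 0.0444, and that of DAAM1 was 0.774% ± 0.230 and 1.45% ± 0.0616 (SD, n = 3). These shares are a description and were not tested.

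In the co-knockdown, DAAM1, FHOD1 and INF2 rose and DIAPH3 fell. These were 4 of the 9 at an adjusted p of at most 0.05, where 18.4% of all genes passed, 9.97% by rising and 8.39% by falling, and where 26.7% passed among genes averaging at least 100 normalized counts. None of the 9 also reached an absolute log2 fold change of 1, as 3.46% of all genes did. The median log2 fold change of the 9 was 0.13, beside -0.0048 for all genes. The siYAP+TAZ and siControl libraries did not overlap for 5 of the 9, with DIAPH1 as the fifth, and for 36.4% of all genes.

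DAAM1 rose the most. It encodes a formin that binds Dishevelled and acts in non-canonical Wnt signalling, and lies at chr14:59188646-59371405 on the plus strand. Its normalized counts were 295, 277 and 281 in Control, 339, 333 and 200 in siControl, 329, 388 and 307 in siYAP, 370, 537 and 371 in siTAZ and 511, 579 and 554 in siYAP+TAZ. All 3 siYAP+TAZ libraries lay above all siControl, Control and siYAP libraries, and the siTAZ libraries lay above siControl, with library 24 of siTAZ inside the siYAP+TAZ range. The log2 fold change in siYAP+TAZ was 0.91 (SE 0.17, 95% confidence interval 0.55 to 1.28, adjusted p = 0.00141), a fitted 1.88-fold rise of the group, with 3 of 3 libraries higher. It passed in 16 of 16 alternative settings, at 0.71 to 1.04. Library 27 of siControl was low, and with library 30 against library 27 the difference was 1.47 on the log2 scale, against 0.59 for 20 against 17 and 0.80 for 25 against 22. In siTAZ the log2 fold change was 0.55 (SE 0.17, adjusted p = 0.116) and in siYAP 0.23 (SE 0.17, adjusted p = 0.676), and neither passed in the main test, though siTAZ did with the block described with the single knockdowns.

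The promoter of DAAM1 is shown because the gene had the largest change of the 9. The 250 bases before its first RefSeq start (GRCh38.p14, chr14:59188417-59188666, plus strand) are printed 5′ to 3′, with capitals at GGGCGG, the core of the GC box, and at CCAAT, on either strand.
DAAM1 promoter: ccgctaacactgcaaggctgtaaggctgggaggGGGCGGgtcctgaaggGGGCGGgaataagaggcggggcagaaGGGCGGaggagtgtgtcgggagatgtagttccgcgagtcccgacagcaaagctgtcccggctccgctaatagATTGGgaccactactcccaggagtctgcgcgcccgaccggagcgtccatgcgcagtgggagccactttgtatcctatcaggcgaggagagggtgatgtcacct
It held 3 GC boxes and 1 CCAAT box and no GGAATG. In windows of 300 bases, from 250 before the start to 50 after it, GGGCGG was found in 44.95% and CCAAT in 34.61% of 35116 RefSeq promoters. The start used in these cells was not measured.

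FHOD1 rose in siYAP+TAZ and its siYAP libraries lay in the same range. It is a formin that bundles actin in stress fibres, and lies on the minus strand at chr16:67229387-67247481. Normalized counts of FHOD1 were 1562, 1476 and 1299 in Control, 1381, 1472 and 1346 in siControl, 1759, 1682 and 1732 in siYAP, 1564, 1226 and 1249 in siTAZ and 1700, 1776 and 1725 in siYAP+TAZ. The siYAP and siYAP+TAZ libraries lay in 1 narrow band above all other libraries, and siTAZ overlapped the controls. The log2 fold change was 0.31 in siYAP+TAZ (SE 0.089, 95% confidence interval 0.12 to 0.49, adjusted p = 0.0198) and 0.30 in siYAP (SE 0.088, adjusted p = 0.125, past the threshold only with the block), with 3 of 3 libraries higher in each. In siTAZ it was -0.054 (SE 0.089, adjusted p = 0.831). The call in siYAP+TAZ was lost without library 17, 27 or 25, at log2 fold changes of 0.30, 0.28 and 0.30 and adjusted p values of 0.0649, 0.071 and 0.066. SLC9A5 lies on the opposite strand over 10.9% of the exon bases of FHOD1, and reads of the pair cannot be told apart if strand was not used, which is not given in the sources used here. SLC9A5 averaged 94.5 normalized counts and had log2 fold changes of 0.55 in siYAP (adjusted p = 0.340), 0.37 in siYAP+TAZ (adjusted p = 0.323) and 0.29 in siTAZ (adjusted p = 0.609), and its part in the FHOD1 values was not tested.

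The 250 bases before the RefSeq start of FHOD1 (chr16:67247482-67247731, minus strand) are shown with the same capitals.
FHOD1 promoter: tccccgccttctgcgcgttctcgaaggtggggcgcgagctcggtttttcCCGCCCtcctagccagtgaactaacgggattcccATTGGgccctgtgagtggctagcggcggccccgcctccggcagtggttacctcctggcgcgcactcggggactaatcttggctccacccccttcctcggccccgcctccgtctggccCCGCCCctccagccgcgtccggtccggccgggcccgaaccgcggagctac
They held 2 GC boxes and 1 CCAAT box. INF2, described next, had 4 RefSeq starts, and its first window (chr14:104689368-104689617, plus strand) held 10 GC boxes and no CCAAT, the most GC boxes among the 14 windows of the 9 genes.
INF2 promoter, window 1: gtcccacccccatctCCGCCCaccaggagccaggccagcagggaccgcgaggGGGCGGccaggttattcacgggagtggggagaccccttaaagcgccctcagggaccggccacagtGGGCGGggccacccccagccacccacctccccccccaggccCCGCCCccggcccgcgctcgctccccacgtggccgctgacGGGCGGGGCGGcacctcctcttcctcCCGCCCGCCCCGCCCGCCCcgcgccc

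INF2 rose by a small amount. It is an unusual formin that severs and depolymerises filaments as well as making them, and acts at the endoplasmic reticulum and in mitochondrial fission (chr14:104681146-104722535, plus strand). Its normalized counts were 8045, 7806 and 7120 in Control, 7291, 7452 and 7332 in siControl, 8043, 7844 and 7505 in siYAP, 8291, 7743 and 7202 in siTAZ and 8992, 9031 and 7799 in siYAP+TAZ. The siYAP+TAZ libraries lay above siControl, but library 30 lay inside the range of Control and of both single knockdowns. The log2 fold change in siYAP+TAZ was 0.23 (SE 0.075, 95% confidence interval 0.069 to 0.38, adjusted p = 0.0420), and all 3 libraries were higher. This call was lost without library 17, 20, 22, 25 or 27 (0.19 to 0.24, adjusted p from 0.0909 to 0.151), and against Control the log2 fold change was 0.17 (adjusted p = 0.128). The values in siYAP (0.084, adjusted p = 0.744) and siTAZ (0.074, adjusted p = 0.697) did not pass.

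DIAPH3 was the member that fell. It encodes a Diaphanous formin of filopodia and cytokinesis, corresponding to the mouse protein mDia2, and lies on the minus strand at chr13:59665583-60163928. Normalized counts of DIAPH3 were 2660, 2942 and 3338 in Control, 2698, 2672 and 3210 in siControl, 1838, 2269 and 2355 in siYAP, 2406, 2433 and 2887 in siTAZ and 1722, 1979 and 2249 in siYAP+TAZ. All siYAP+TAZ libraries and all siYAP libraries lay below all siControl libraries, and siTAZ overlapped siControl. The log2 fold change in siYAP+TAZ was -0.53 (SE 0.12, 95% confidence interval -0.78 to -0.27, adjusted p = 0.00498), to 0.694 of the siControl level, and it passed in 16 of 16 alternatives at -0.62 to -0.44. In siYAP, where it passed only with the block, it was -0.41 (SE 0.12, adjusted p = 0.125) and in siTAZ -0.15 (SE 0.12, adjusted p = 0.592). Within runs of 5 consecutive library numbers the siYAP+TAZ difference was -0.65, -0.43 and -0.51 on the log2 scale.

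DIAPH3 is shown with both of its RefSeq windows, since it alone fell and since its second window is 1 of the 2 among the 14 that held GGAATG, the core that TEAD factors recognise. The first (chr13:60163929-60164178, minus strand) has capitals at GGGCGG and CCAAT. The second (chr13:60013190-60013439, minus strand) and window 3 of INF2 (chr14:104688042-104688291, plus strand) have capitals at GGAATG or its complement CATTCC.
DIAPH3 promoter, window 1: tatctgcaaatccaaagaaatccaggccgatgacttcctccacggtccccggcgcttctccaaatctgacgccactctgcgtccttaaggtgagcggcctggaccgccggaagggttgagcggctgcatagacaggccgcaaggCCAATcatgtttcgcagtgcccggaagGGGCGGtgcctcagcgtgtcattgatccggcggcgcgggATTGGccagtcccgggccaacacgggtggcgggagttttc
DIAPH3 promoter, window 2: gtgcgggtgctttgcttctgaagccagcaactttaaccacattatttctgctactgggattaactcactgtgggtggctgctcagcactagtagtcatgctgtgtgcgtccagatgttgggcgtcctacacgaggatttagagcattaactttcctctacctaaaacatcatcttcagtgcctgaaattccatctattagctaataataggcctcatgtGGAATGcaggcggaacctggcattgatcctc
INF2 promoter, window 3: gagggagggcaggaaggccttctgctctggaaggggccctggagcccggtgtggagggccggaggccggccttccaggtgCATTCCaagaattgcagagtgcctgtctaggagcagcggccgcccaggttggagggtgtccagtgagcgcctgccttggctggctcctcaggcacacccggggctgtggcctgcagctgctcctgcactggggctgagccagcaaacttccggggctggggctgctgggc
The first DIAPH3 window held 1 GC box and 2 CCAAT boxes. GGAATG was found in 2 of the 14 windows, a share near the 14.03% of all windows, GGGCGG in 10 of the 14 and CCAAT in 4 of the 14, beside the shares of all windows given above. The AP-1 motif TGANTCA was found in 1 window, the second of INF2, and in 7.709% of all windows, and the CArG box, the site of SRF, in 0 of the 14 and 1.293% of all. These are matches of letters in short windows, and distal elements were not searched.

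**Figure D2:**
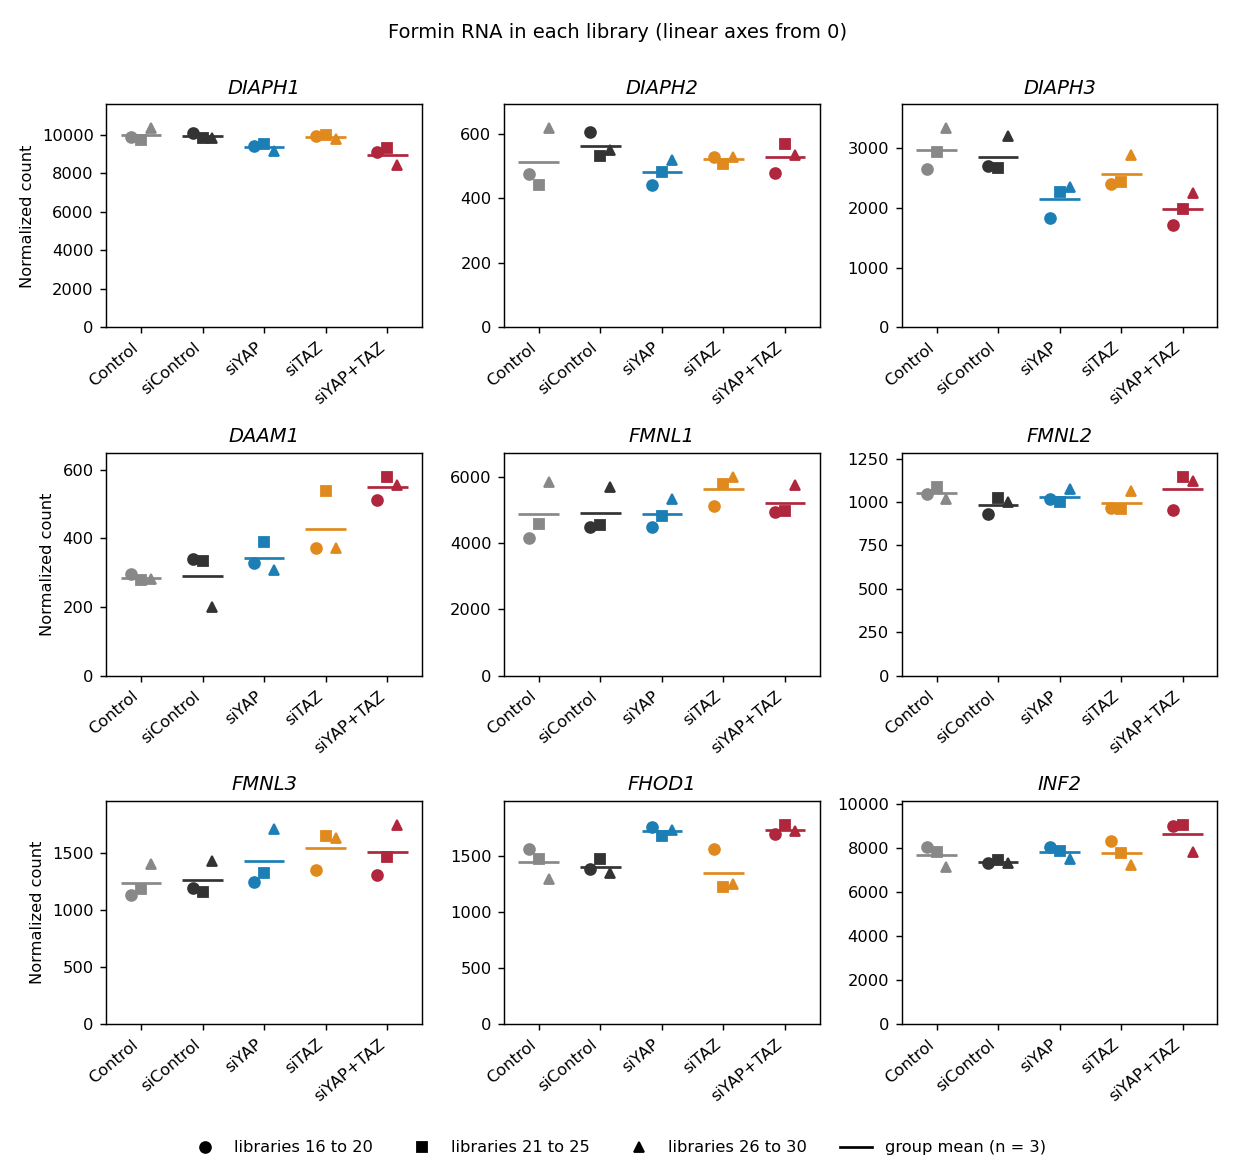
Normalized count of each of the 9 formins in each library, on linear axes that start at 0, with 1 point per library shaped by run of library numbers and a bar at the group mean (n = 3). DAAM1 reaches 511 to 579 in siYAP+TAZ against 200 to 339 in siControl, DIAPH3 falls to 1722 to 2249, and DIAPH2 overlaps siControl in siYAP+TAZ but lies just below it in siYAP and siTAZ.

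The other Diaphanous formins moved little. DIAPH1, the abundant formin of stress fibres and microtubules (chr5:141515016-141619055, minus strand), had normalized counts of 10078, 9814 and 9837 in siControl and 9089, 9329 and 8433 in siYAP+TAZ, which did not overlap. Its counts were 9885, 9739 and 10334 in Control, 9425, 9511 and 9144 in siYAP and 9934, 9993 and 9789 in siTAZ, so that siYAP also lay below siControl. The log2 fold change in siYAP+TAZ was -0.15 (SE 0.061, 95% confidence interval -0.27 to -0.019) and did not pass (adjusted p = 0.106), whereas DESeq2 gave -0.14 with an adjusted p of 0.0405. In siYAP and siTAZ the log2 fold changes were -0.082 and -0.00061.

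DIAPH2 did not pass in any comparison. It spans chrX:96684712-97604997 on the plus strand, and its protein is known for roles in ovarian function and in the attachment of microtubules in mitosis. Its normalized counts were 478, 442 and 618 in Control, 607, 531 and 549 in siControl, 441, 483 and 521 in siYAP, 530, 507 and 528 in siTAZ and 478, 568 and 536 in siYAP+TAZ. The siYAP+TAZ libraries overlapped siControl, while those of siYAP and siTAZ lay just below it, and the 3 Control libraries spread over nearly the range of the other groups. The log2 fold change was -0.092 in siYAP+TAZ (SE 0.11, 95% confidence interval -0.33 to 0.14, adjusted p = 0.635), -0.23 in siYAP (-0.46 to 0.0081, adjusted p = 0.443) and -0.11 in siTAZ (-0.34 to 0.13, adjusted p = 0.706). Over 16 alternatives the siYAP+TAZ value ran from -0.14 to 0.045 (adjusted p 0.499 to 0.927), turning positive with Control as the reference.

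The 250 bases before the RefSeq start of DIAPH2 (chrX:96684592-96684841, plus strand) are shown as those of a member that did not pass the test, with capitals at GGGCGG and CCAAT.
DIAPH2 promoter: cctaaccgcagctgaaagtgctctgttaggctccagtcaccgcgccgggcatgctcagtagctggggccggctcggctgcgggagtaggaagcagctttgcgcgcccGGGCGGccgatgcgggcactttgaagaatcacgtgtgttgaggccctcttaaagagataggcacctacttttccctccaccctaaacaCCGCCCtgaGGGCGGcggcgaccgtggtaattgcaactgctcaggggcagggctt
They held 3 GC boxes and no CCAAT box. As with the other windows, nothing in the counts shows which start was read.

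The FMNL formins did not pass in any knockdown in the main test, and FMNL1 and FMNL3 passed with the run of library numbers as a block. FMNL1 (chr17:45221444-45247319, plus strand), best known from leukocytes, had normalized counts of 4498, 4559 and 5715 in siControl, 4486, 4820 and 5325 in siYAP, 5129, 5780 and 6012 in siTAZ and 4950, 4985 and 5762 in siYAP+TAZ. FMNL2 (chr2:152335174-152649826, plus strand), a formin of lamellipodia, stood at 929, 1022 and 998 in siControl and 957, 1146 and 1121 in siYAP+TAZ, and between 957 and 1086 in all libraries of Control, siYAP and siTAZ. FMNL3 (chr12:49636499-49708165, minus strand), which makes filopodia and acts in endothelial cells, stood at 1192, 1159 and 1425 in siControl, 1242, 1318 and 1708 in siYAP, 1347, 1642 and 1627 in siTAZ and 1303, 1461 and 1740 in siYAP+TAZ. All these knockdown groups overlapped siControl. The log2 fold changes in siYAP+TAZ were 0.088 (SE 0.12, adjusted p = 0.678) for FMNL1, 0.13 (SE 0.080, adjusted p = 0.295) for FMNL2 and 0.26 (SE 0.13, adjusted p = 0.215) for FMNL3. FMNL3 in siTAZ, at 0.29 (95% confidence interval 0.0044 to 0.57, adjusted p = 0.303), had the larger value of the single knockdowns. With the block FMNL3 passed in siYAP+TAZ (0.25, adjusted p = 0.00652) and in siTAZ (0.29, adjusted p = 0.00639), and FMNL1 passed in siTAZ (0.20, adjusted p = 0.0330). Genes on the opposite strand cover 24.6% of the exon bases of FMNL1 (EFCAB15P, FMNL1-AS1 and FMNL1-DT) and 19.7% of those of FMNL3 (PRPF40B), so the same limit on strand holds for both.

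Part of the spread went with the library numbers. In libraries 26 to 30, FMNL1, FMNL3 and DIAPH3 lay above their group mean in 5 of 5 groups, by 0.17, 0.19 and 0.17 on the log2 scale on average, and INF2 lay below it in 5 of 5, by 0.081 on average (-0.081). The labels give no batch. These runs are the block of the fit with a term for the run.

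In the single knockdowns the calls depended on the run of library numbers. No formin passed the main test in either, whereas with the run as a block 2 passed in siYAP and 3 in siTAZ. In the main test of siYAP, 0 of 9 passed at the adjusted threshold, where 0.933% of all genes did, and 2 of 9, DIAPH3 and FHOD1, had an unadjusted p under 0.05, as 11.9% of all genes had. The siYAP and siControl libraries did not overlap for 5 of the 9 and for 19.5% of all genes. INF2 and FHOD1 lay higher, as 9.65% of genes did, and the 3 Diaphanous formins lower, as 9.86% did. In the main test of siTAZ, 0 of 9 passed, beside 2.03% of all genes, and DAAM1 and FMNL3 had an unadjusted p under 0.05, beside 16.0%. For 2 of the 9, DAAM1 and DIAPH2, siTAZ and siControl did not overlap, and the share among all genes was 20.9%. Without library 23 of siYAP, in which YAP1 stayed high, the count in siYAP was also 0. DESeq2 and limma-voom, both without the block, also called 0 in each. With the block DIAPH3 fell (-0.41, adjusted p = 0.000102) and FHOD1 rose (0.30, adjusted p = 0.0100) in siYAP, where 6.10% of all genes passed. In siTAZ, where 10.3% passed, DAAM1 then rose by 0.54 (adjusted p = 0.0155), beside FMNL1 and FMNL3 as given above.

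**Figure D3:**
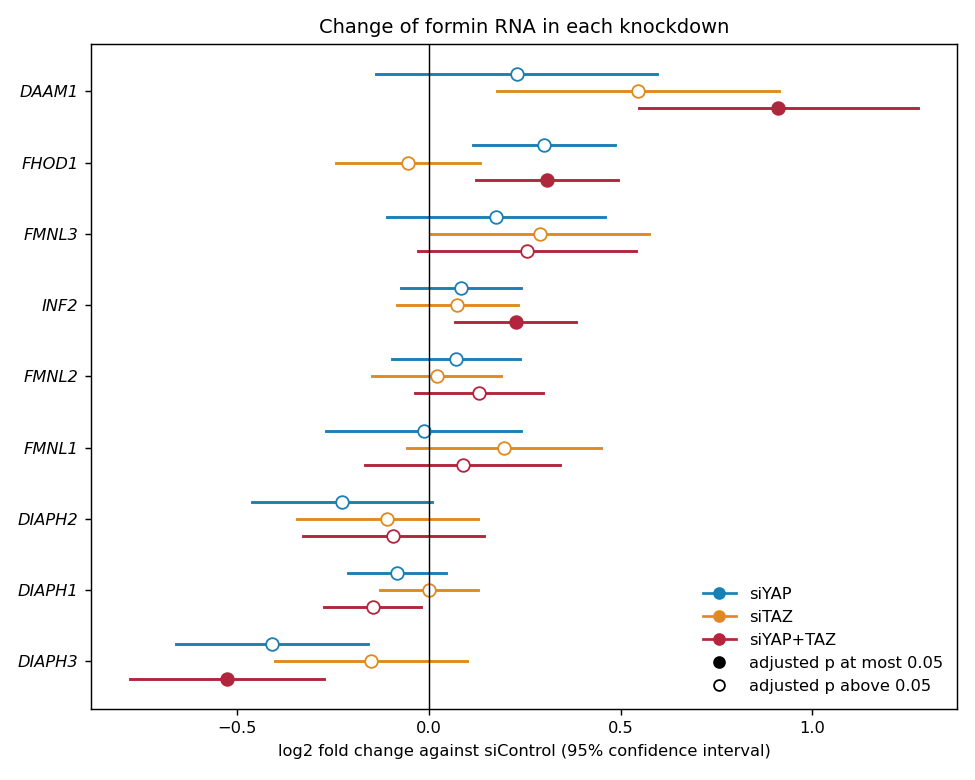
Log2 fold change of each formin against siControl in siYAP, siTAZ and siYAP+TAZ, with bars for the 95% confidence interval and filled points for an adjusted p of at most 0.05. The 4 filled points all belong to siYAP+TAZ: DAAM1 at 0.91, FHOD1 at 0.31, INF2 at 0.23 and DIAPH3 at -0.53.

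The knockdowns were also set directly against each other. WWTR1 RNA was higher in siYAP+TAZ than in siTAZ, by 1.13 on the log2 scale (95% confidence interval 0.44 to 1.82, adjusted p = 0.0648), and the libraries did not overlap. The comparisons with siTAZ are therefore not made at equal WWTR1 RNA. DAAM1 was higher in siYAP+TAZ than in siYAP, by 0.68 on the log2 scale (SE 0.17, adjusted p = 0.0278), and was the 1 of 9 that passed there, beside 5.13% of all genes. This call was lost without library 18, 20, 25, 28 or 30, at differences of 0.61 to 0.73 (adjusted p from 0.0553 to 0.110). Against siTAZ the difference of DAAM1 was 0.37 (95% confidence interval 0.0060 to 0.73, adjusted p = 0.250). FHOD1 was higher in siYAP+TAZ than in siTAZ, by 0.36 (SE 0.089, adjusted p = 0.0224), the 1 of 9 that passed in that comparison, beside 5.44% of all genes. It was lost without library 20, 24, 25 or 29, at differences of 0.31 to 0.38 (adjusted p from 0.0601 to 0.108), and also when only these groups were fitted (0.37, adjusted p = 0.0630). Against siYAP the difference of FHOD1 was 0.0079 (95% confidence interval -0.18 to 0.19). DIAPH3 differed from siTAZ by -0.38 (adjusted p = 0.0783), which passed without library 30 (-0.47, adjusted p = 0.0458), and from siYAP by -0.12 (adjusted p = 0.663). INF2 differed from siYAP by 0.14 (adjusted p = 0.318) and from siTAZ by 0.15 (adjusted p = 0.279), and neither passed.

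Between siYAP and siTAZ 0 of 9 passed, beside 0.642% of all genes. FHOD1 came nearest, at 0.35 (SE 0.089, adjusted p = 0.0739), and DESeq2 called it (0.36, adjusted p = 0.022). Without library 19 of siTAZ it passed (0.48, adjusted p = 0.00787). The interaction, which is the departure of the co-knockdown from the sum of the single effects on the log2 scale, passed for 0 of 9 and for 0.0106% of all genes, and 0 of 9 had an unadjusted p under 0.05, as 5.85% of all genes had. It lay between -0.21 for FMNL3 and 0.24 for DIAPH2, and for DAAM1 it was 0.14 (95% confidence interval -0.38 to 0.65). WWTR1 itself had an interaction of 1.14 (95% confidence interval 0.19 to 2.09, adjusted p = 0.755), as it was depleted less in siYAP+TAZ than in siTAZ. Additivity at equal depletion was not tested. Against Control, siControl changed 0 of 9 and 0.0% of all genes, with 398 genes (2.11%) at an unadjusted p under 0.05 and none of the 9 among them. DIAPH2, at 0.14 (-0.099 to 0.37), had the largest value there. With the block DIAPH3 was lower in siYAP+TAZ than in siTAZ (-0.38, adjusted p = 8.94e-05), where 14.8% of all genes passed. Between siYAP and siTAZ the block called DIAPH3 (-0.26, adjusted p = 0.00940), FHOD1 (0.36, adjusted p = 0.00278) and FMNL1 (-0.21, adjusted p = 0.0342), beside 7.32% of all genes. These comparisons share libraries and are not independent of each other.

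The formins outside the set split as well. FHOD3, which organises actin in sarcomeres of the heart, had normalized counts of 1033, 1053 and 931 in siControl and 1234, 1258 and 1321 in siYAP+TAZ, which did not overlap, and it rose with a log2 fold change of 0.34 (SE 0.085, adjusted p = 0.00883). DAAM2, the close relative of DAAM1, stood at 22, 36 and 20 counts as deposited in siControl and 9, 11 and 10 in siYAP+TAZ. Its log2 fold change was -1.21 (SE 0.41, adjusted p = 0.0484), in the direction opposite to DAAM1, but this call rests on few counts, was lost in each of the 6 fits without 1 library, and MOCS1 and DAAM2-AS1 lie opposite 30.1% of its exon bases. FMN1 (-0.21, adjusted p = 0.508) and FHDC1 (0.22, adjusted p = 0.698) did not pass. The 2 of 4 called stand beside 18.4% of all genes. In the main test 0 of these 4 passed in siYAP and in siTAZ, where 0.933% and 2.03% of all genes did. FHOD3 in siTAZ stood at 1276, 1202 and 1143 normalized counts, above all siControl libraries (0.26, SE 0.085, adjusted p = 0.116). The fit with the block is not given for these 4 in the single knockdowns.

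Formins work with profilins, capping proteins and tropomyosins, and genes of these kinds were read by lists in the co-knockdown. Of 25 regulators and partners of formins, 3 rose, 1 fell and 21 did not pass. These 4 of 25 lie below the 18.4% of all genes that passed and the 26.7% among genes averaging at least 100 normalized counts, so the calls are given gene by gene and not as a result about the list. SRC, a kinase of invadopodia and adhesions, rose by 0.48 on the log2 scale (SE 0.099, adjusted p = 0.00202), MRTFA, the actin-sensing partner of SRF, by 0.29 (SE 0.084, adjusted p = 0.0195) and SRGAP2, a membrane-bending protein, by 0.27 (SE 0.075, adjusted p = 0.0176). LIMK2, the cofilin kinase, fell by 0.31 (SE 0.092, adjusted p = 0.0243). PFN1, the main profilin, had a log2 fold change of -0.14 (adjusted p = 0.270). With the block 8 of the 25 passed, beside 28.6% of all genes. Without library 22 of siControl only SRC of this list passed, and without library 20 or 27 the count was 2.

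The same shares of all genes, 18.4% and 26.7%, are the background of the next lists, in which 2 of 14, 1 of 14 and 2 of 4 genes passed, and nothing is read from them about the lists. Of 14 proteins of barbed ends and filopodia, DSTN, an actin-depolymerising protein (0.31, SE 0.084, adjusted p = 0.0139), and MYO10, the motor of filopodial tips (0.30, SE 0.072, adjusted p = 0.00593), rose and 0 fell. Without library 20, 25 or 27 the count was 1, MYO10, and with the block it was 6. Of 14 genes of the Arp2/3 complex, the maker of branched filaments, and its activators, only ARPC5L fell (-0.32, SE 0.069, adjusted p = 0.00265) and 0 rose. Of 4 tropomyosins, which coat formin-made filaments, TPM4 rose (0.21, SE 0.072, adjusted p = 0.0453) and TPM1 fell (-0.38, SE 0.071, adjusted p = 0.00104), and TPM4 no longer passed without library 17, 20, 22, 25 or 27. The medians of the log2 fold changes were -0.0086 for the regulators, 0.073 for the barbed-end list, 0.025 for the Arp2/3 list and -0.029 for the tropomyosins. In the main test of siYAP TPM1 fell (-0.34, adjusted p = 0.0258) and no other gene of these lists passed, and in that of siTAZ 0 passed. The fit with the block is not given for these lists in the single knockdowns.

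**Figure D4:**
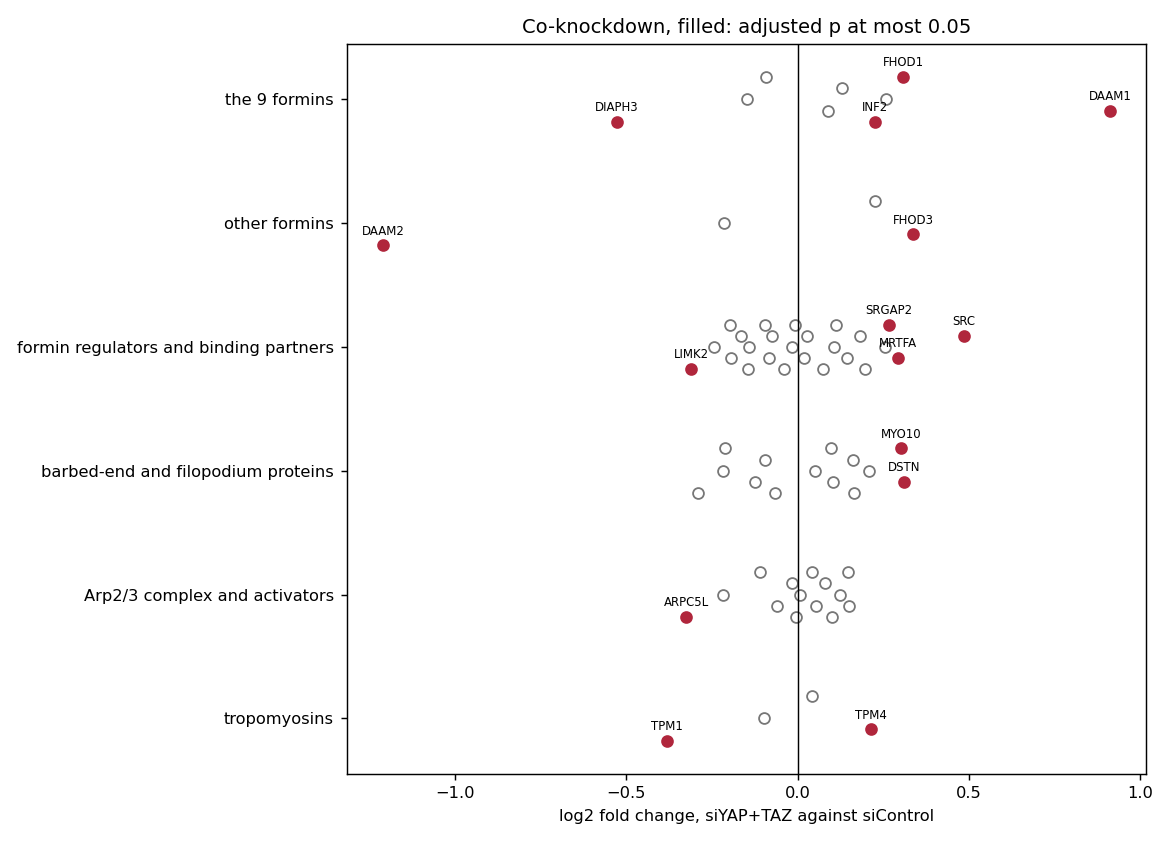
Log2 fold change in siYAP+TAZ against siControl for the 9 formins and for 5 lists of related genes, 1 point per gene, filled and named where the adjusted p was at most 0.05. Filled points lie on both sides of 0, from DAAM2 at -1.21 to DAAM1 at 0.91.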

How the data were processed

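Polyadenylated RNA of 15 MDA-MB-231 libraries, 3 in each of 5 groups named in the sample titles, was sequenced as single reads. The authors trimmed the reads with cutadapt, mapped them to GRCh38 (GENCODE release 34) with STAR 2.4.2a, and deposited each gene's raw read counts, which were the input of every test here. The authors also deposited a normalized signal (counts scaled by DESeq2 size factors) and log2 values (rlog), which were not used, and columns of their own DESeq2 comparisons (fold changes and p-values), which were not read. All 18858 genes reached 5 reads in at least 1 library, so none was filtered.

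TMM factors scaled the counts, and edgeR 4.0.16 (R 4.3.3) gave the tests (quasi-likelihood, robust estimation, 1 coefficient per group, all 15 libraries), with Benjamini-Hochberg adjustment over all genes. Standard errors were taken from the log2 fold change and its F statistic. The fit was also run on simulated counts. These held no effect of the run of library numbers, so they say nothing about spread shared within a run. Normalized counts and CPM use TMM. Levels per kilobase use the joined exons of GENCODE release 44. Promoters come from RefSeq (GRCh38.p14), siRNA sequences from the study's list. Alternatives were DESeq2 1.42.0 and its size factors, library size alone, at least 10 reads in 3 libraries, filterByExpr, limma-voom (limma 3.58.1), no robust estimation, only the groups compared, a block for runs of library numbers, Control as the reference and each library left out.

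The members and lists were chosen with earlier results of these data known. The genes named are the 9 formins, the siRNA targets, cell markers, other formins, up to 4 genes per direction and list with the largest change among those past the threshold, and the 5 genes most like DIAPH2. PFN1, the main profilin, and genes opposite a formin were added after their values were seen. A further gene list is not reported here. With 3 libraries against 3, an exact permutation test of 1 gene cannot go below p = 0.1, so none is given.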

Additional observations from a re-analysis of the deposited data

How the results depend on the processing

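In siYAP+TAZ against siControl, DAAM1 and DIAPH3 passed in every alternative run, while the count of formins called fell to 2 without library 17, 25 or 27 (range 2 to 4 over the 6 fits without 1 library). Calls over all genes fell as well in these 6 fits, from 3464 to between 2502 and 2925. That range was 0 to 1 for siYAP+TAZ against siYAP and for siYAP against siTAZ, and 0 to 2 for siYAP+TAZ against siTAZ. It was 1 to 5 for the regulators, 1 to 3 for the barbed-end list, 1 to 2 for the tropomyosins and 1 to 1 for the formins outside the set. The latter count was also 1, FHOD3, with DESeq2 size factors, library size only, DESeq2, limma-voom and no robust estimation. The Arp2/3 list gave 2 with library size only and with Control as the reference, and the barbed-end list gave 4 with Control as the reference. FHOD1 alone passed between siYAP and siTAZ with DESeq2 (1), and 0 formins passed between siYAP+TAZ and siTAZ when only these groups were fitted. Per longest transcript the levels were 69.7 for DIAPH1, 22.4 for DIAPH3, 2.72 for DAAM1, 43.9 for FMNL1, 7.72 for FMNL2, 14.97 for FHOD1 and 42.8 CPM per kb for INF2, from the shorter length alone. Apart from that, the cause of these shifts was not tested.

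Values near 0 that had not passed changed sign without passing. DIAPH2 gave 0.045 in siYAP+TAZ and 0.029 in siTAZ with Control as the reference, and FMNL2 -0.025 in siYAP and -0.075 in siTAZ. FMNL1 in siYAP gave 0.038 with library size only, 0.0013 with at least 10 reads in 3 libraries, 0.00241 with filterByExpr and 0.0016 against Control. DIAPH1 in siTAZ gave 0.0018 with DESeq2 size factors and with DESeq2, 0.014 with library size only, 0.00546 with at least 10 reads in 3 libraries and 0.0049 with filterByExpr. Without 1 library each, siControl against Control ran from -0.097 to 0.24 for DAAM1, -0.029 to 0.014 for DIAPH1, -0.15 to 0.030 for DIAPH3, -0.12 to 0.013 for FHOD1, -0.11 to 0.17 for FMNL1 and -0.071 to 0.12 for FMNL3. SiTAZ ran from -0.0081 to 0.0090 for DIAPH1, -0.18 to 0.0078 for FHOD1 and -0.029 to 0.049 for FMNL2, and siYAP from -0.081 to 0.11 for FMNL1. The interaction ran from -0.070 to 0.13 for DIAPH3, -0.0062 to 0.19 for FHOD1 and -0.015 to 0.12 for FMNL2. SiYAP+TAZ against siTAZ ran from -0.034 to 0.081 for DIAPH2 and -0.14 to 0.059 for FMNL3, against siYAP from -0.019 to 0.023 for FHOD1 and -0.046 to 0.23 for FMNL3, and siYAP against siTAZ from -0.040 to 0.061 for INF2.

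With a replicate block for runs of 5 consecutive library numbers, the count of formins called was 2 in siYAP (DIAPH3, FHOD1), 3 in siTAZ (DAAM1, FMNL1, FMNL3), 2 in siYAP+TAZ against siTAZ and 3 in siYAP against siTAZ, and the lists gave 8 regulators and 6 barbed-end genes. FMNL3 then passed in siYAP+TAZ (0.25, adjusted p = 0.00652). The block changed no other call of the 9 formins. Calls over all genes rose with it too, from 3464 to 5389 in siYAP+TAZ, 176 to 1151 in siYAP and 383 to 1942 in siTAZ. The RNA came from 3 independent sets of experiments and each run holds all 5 groups, but the sources used here do not tie the runs to the sets. Deviations from the group means correlated over 0.1 in 9 of 10 pairs within libraries 16 to 20 and 10 of 10 within 26 to 30, but in 2 of 10 within 21 to 25 (-0.026 to 0.11), where the highest value between runs was 0.14. Of the 15 libraries, 11 lay closest to 1 of their own run, and the lowest value between runs was -0.30. Deviations from a group mean cancel out within the group. A run that lies near the group means can thus give values near 0 even if its libraries form a set. This check cannot decide whether libraries 21 to 25 form one, and what the runs stand for was not tested.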

Other observations

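The gene whose pattern over the 15 libraries lay nearest to that of DIAPH2 was PIK3CA. Each gene was centred on its own mean of log2 CPM, and the root mean square difference from DIAPH2 was 0.065 for PIK3CA, 0.079 for CBL, 0.080 for ING1, 0.081 for DENND5A and 0.082 for MARK2, beside a median of 0.195 over 10639 candidate genes averaging at least 100 normalized counts. In siYAP their log2 fold changes were -0.13, -0.18, -0.25, -0.16 and -0.16, and in siYAP+TAZ 0.036, 0.024, -0.15, -0.038 and -0.042. These genes were picked by likeness over the same libraries, so fold changes near those of DIAPH2 follow from the choice. A gene that varies little comes near to DIAPH2 by this measure, since DIAPH2 itself varied little.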
